A study of Mus musculus with 9 samples.

Results

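RNA levels of 39 genes for splicing factors and temperature-sensitive RNA-binding proteins were measured by RNA-seq in the medial prefrontal cortex (mPFC) of DBA2/J mice. The genes were chosen by name. They are the mouse genes whose symbol starts with Srsf or Hnrnp, together with Tra2a, Tra2b, Clk1, Clk2, Clk3, Clk4, Cirbp and Rbm3, that had a value above 0 in some library. In the reference annotation 42 symbols matched these names, and each had a row. Of these, 39 were above 0, among 19250 features above 0 and 36172 features in all. They comprise 11 Srsf genes, 20 Hnrnp genes, 4 Clk genes, 2 Tra2 genes, and Cirbp and Rbm3. The remaining 3, Hnrnpr and the pseudogenes Srsf3-ps and Hnrnpa1l2-ps, were listed at 0 in all 9 libraries. Hnrnpr is known to be widely expressed, so its 0 may be a failed estimate and is not read as a level.

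There were 3 groups of 3 libraries. SA:ANH-KDM5Ci were DBA2/J mice of the SA:ANH subtype that had gone through 5 days of social defeat (smSDS) and were given an inhibitor of KDM5C, a histone lysine demethylase. SA:ANH-vehicle were mice of the same subtype and stress given vehicle, which the treatment labels name as saline. NS were non-stressed DBA2/J mice, also given saline. Every group was therefore of 1 inbred strain, and SA:ANH-vehicle differed from NS both in the stress and in having been assigned to a subtype, which cannot be told apart. The meaning of SA:ANH, the dose and timing of the inhibitor, and the mice's age and sex are not given in the sources used here. Whether each library is a different mouse is not stated by the labels, and the p-values below reflect the library-to-library spread alone, part or all of which may be technical.

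Splicing removes introns from newly made RNA, and the genes described here encode many of the proteins that decide which exons are kept. SR proteins, encoded by the Srsf genes and related to the Tra2 proteins, bind RNA through an RNA recognition motif and contact the spliceosome through a domain rich in arginine and serine. They mostly promote the inclusion of the exons they bind. Heterogeneous nuclear ribonucleoproteins, encoded by the Hnrnp genes, coat the same nascent transcripts and often oppose SR proteins at shared exons. The CLK kinases phosphorylate the arginine and serine rich domain of SR proteins, and their activity is known to be higher at lower body temperature. Cirbp and Rbm3 encode small RNA-binding proteins that are induced by mild cold, and both are expressed in neurons. Many genes of these families limit their own output by splicing in a poison exon that sends the transcript to nonsense-mediated decay. The values given here are sums over all transcripts of a gene, so they do not separate coding from poison-exon transcripts.

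The promoters of 4 genes that carry the results below are shown, because they belong to the genes that fell under the inhibitor (Tra2a and Srsf7), the gene with the smallest adjusted p against non-stressed mice (Srsf10) and the cold-inducible Cirbp. Each run is 300 bases 5′ to 3′ on the strand of the gene, from 250 bases before to 50 bases after the start RefSeq gives, on GRCm38.p6, and therefore shows the C57BL/6J reference sequence and not that of DBA2/J. Capitals mark matches, on either strand, to 4 short motifs: the mild cold-responsive element TCCCCGCC, the heat shock element core GAANNTTC, the cyclic AMP response element TGACGTCA and the CCAAT box CCAAT. The Tra2a window lies at chr6:49264003-49264302, minus strand.
Tra2a: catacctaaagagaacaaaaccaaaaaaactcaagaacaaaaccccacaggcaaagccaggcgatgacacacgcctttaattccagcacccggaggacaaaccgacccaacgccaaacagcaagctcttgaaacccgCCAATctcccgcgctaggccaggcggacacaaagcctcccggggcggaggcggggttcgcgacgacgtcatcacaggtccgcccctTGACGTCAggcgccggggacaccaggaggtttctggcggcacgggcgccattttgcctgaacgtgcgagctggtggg
The Srsf7 window lies at chr17:80207256-80207555, minus strand.
Srsf7: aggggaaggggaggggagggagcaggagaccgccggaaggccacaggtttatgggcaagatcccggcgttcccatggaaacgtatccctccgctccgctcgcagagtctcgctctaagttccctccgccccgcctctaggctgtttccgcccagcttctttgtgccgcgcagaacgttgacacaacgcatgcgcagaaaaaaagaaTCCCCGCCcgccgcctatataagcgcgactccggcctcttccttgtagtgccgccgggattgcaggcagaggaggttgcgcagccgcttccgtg
The Srsf10 window lies at chr4:135855821-135856120, plus strand.
Srsf10: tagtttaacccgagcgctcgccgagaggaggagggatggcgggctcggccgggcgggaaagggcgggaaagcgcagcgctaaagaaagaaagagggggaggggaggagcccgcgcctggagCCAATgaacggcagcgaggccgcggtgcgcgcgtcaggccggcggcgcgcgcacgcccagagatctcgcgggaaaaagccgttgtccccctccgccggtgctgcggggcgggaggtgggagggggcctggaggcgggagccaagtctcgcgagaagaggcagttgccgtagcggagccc
The Cirbp window lies at chr10:80167589-80167888, plus strand. It is the one of 2 RefSeq windows of Cirbp that is nearest to the outermost 5′ end of the gene.
Cirbp: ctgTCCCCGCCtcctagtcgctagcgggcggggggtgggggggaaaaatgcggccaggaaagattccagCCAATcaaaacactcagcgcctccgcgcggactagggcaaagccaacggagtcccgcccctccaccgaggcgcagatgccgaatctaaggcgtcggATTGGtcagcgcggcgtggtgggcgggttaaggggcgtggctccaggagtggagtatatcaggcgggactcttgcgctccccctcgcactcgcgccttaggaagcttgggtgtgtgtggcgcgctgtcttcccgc

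Promoter windows were found for 35 of the 39 genes. The cold-responsive element, which was described in Cirbp itself, was present in 3 of these 35, namely Cirbp, Srsf7 and Hnrnpa0, against 5.44% of all 27025 promoter windows. In the Srsf7 window its match overlaps a GC box on the opposite strand. The heat shock element core, a minimal pair of the units bound by heat shock factors, was in 4 of the 35 (Hnrnpa2b1, Hnrnpl, Srsf9 and Tra2b), against 7.96% of all windows. A full cyclic AMP response element, the site of CREB-family factors, was in 2 of the 35 (Tra2a and Clk4), against 1.85%. The CCAAT box was in 19 of the 35, against 38.0%, and the GC box GGGCGG in 28, against 35.9%. An E-box CACGTG, the site used by clock and MYC-family factors, was in 5, against 7.24%. The windows of these genes were rich in G and C, with a median of 65.0% against 52.7% over all windows. The GC box is itself made of those bases, as is all but the first base of the cold-responsive element.

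Libraries held from 29845097 to 42196472 counts, with overlapping ranges in the 3 groups (30525714 to 40700115 in SA:ANH-KDM5Ci, 33733470 to 42196472 in SA:ANH-vehicle and 29845097 to 36033714 in NS). Values are given as CPM, the usual counts per library total, after scaling by the trimmed mean of M-values (TMM), whose factors ran from 0.987 to 1.01. All 39 genes passed the filter on low counts, which left 15144 genes tested. A gene is said to have risen or fallen when edgeR's quasi-likelihood test gave a Benjamini-Hochberg adjusted p under 0.05 over those 15144 genes. Log2 fold changes are given ± their standard error, with 3 libraries a group.

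As a tissue check, all 12 excitatory neuron markers were detected, with a summed level of 7500 to 7625 CPM in SA:ANH-KDM5Ci, 7355 to 7695 CPM in SA:ANH-vehicle and 7705 to 7985 CPM in NS. Further marker lists, for other cell types that the tissue could hold, were summed in the same way. Meningeal and fibroblast markers summed to 88.7 to 96.1 CPM in SA:ANH-KDM5Ci, 128 to 203 CPM in SA:ANH-vehicle and 110 to 177 CPM in NS. Endothelial markers summed to 196 to 263 CPM in SA:ANH-KDM5Ci, 252 to 286 CPM in SA:ANH-vehicle and 248 to 269 CPM in NS. Myelin markers summed to 2896 to 3793 CPM in SA:ANH-KDM5Ci, 2061 to 3231 CPM in SA:ANH-vehicle and 1575 to 3206 CPM in NS. Striatal neuron markers summed to 319 to 748 CPM, 266 to 345 CPM and 244 to 399 CPM in the same order of groups, and blood markers to 444 to 586 CPM, 486 to 554 CPM and 279 to 321 CPM. Oligodendrocyte precursor markers summed to 261 to 281 CPM in SA:ANH-KDM5Ci, 221 to 243 CPM in SA:ANH-vehicle and 225 to 264 CPM in NS. Astrocyte markers summed to 4526 to 5134 CPM in SA:ANH-KDM5Ci, 4455 to 4979 CPM in SA:ANH-vehicle and 4657 to 5234 CPM in NS. Interneuron markers summed to 1055 to 1139 CPM in SA:ANH-KDM5Ci, 1007 to 1095 CPM in SA:ANH-vehicle and 1023 to 1092 CPM in NS. Mural cell markers summed to 128 to 153 CPM in SA:ANH-KDM5Ci, 147 to 174 CPM in SA:ANH-vehicle and 139 to 155 CPM in NS. Microglial markers summed to 417 to 515 CPM in SA:ANH-KDM5Ci, 428 to 441 CPM in SA:ANH-vehicle and 407 to 416 CPM in NS, and none of the 10 passed a test. Relative to SA:ANH-vehicle, 4 of 11 meningeal, 3 of 9 endothelial, 1 of 9 astrocyte and 1 of 6 mural markers fell in SA:ANH-KDM5Ci, and 2 of 6 precursor markers rose. Relative to NS, 2 meningeal, 3 endothelial, 1 astrocyte and 1 mural marker fell in SA:ANH-KDM5Ci, and 5 of 5 blood, 1 precursor and 1 of 9 interneuron markers rose. In SA:ANH-vehicle relative to NS, 2 of 5 blood markers rose. Over all genes tested, 0.891% rose and 1.62% fell in SA:ANH-KDM5Ci relative to SA:ANH-vehicle. Relative to NS, 1.86% rose and 2.11% fell in SA:ANH-KDM5Ci, and 0.0132% rose in SA:ANH-vehicle. Acta2, a mural marker, was listed at 0, and no other marker was. The part of these cell populations in the results below was not tested, and in bulk tissue fewer cells of a type and less RNA per cell cannot be told apart.

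These genes were well expressed and steady. Their median level was 102 CPM, against 21.2 CPM over all genes tested. Levels ran from 9.52 CPM for Hnrnpa1l2-ps2, a copy of Hnrnpa1 that may have been given reads of Hnrnpa1, to 496 CPM for Hnrnpa3. The median coefficient of variation within a group was 3.26%, against 6.52% over all genes tested. A higher level itself lowers the counting part of this spread, and genes of equal level were not compared. In 24 of the 39 genes the highest of the 9 libraries was under 1.2 times the lowest, and in 33 it was under 1.3 times. Hnrnpk, a poly(C)-binding protein, was the steadiest, at 1.04 times. Rbm3 varied the most, at 1.5 times.

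Per kilobase of exon, the levels covered a 19.9-fold range. Hnrnp genes were the most abundant, with a median of 37.0 CPM per kb. The order opened with Hnrnpa3 at 92.0 CPM per kb, Hnrnpa1 at 72.9, Hnrnpa2b1 at 63.3 and Hnrnpa0 at 61.4, all members of the A/B group that binds UAG-like motifs and represses exons. Of the 38 pairs of neighbours in this order, 34 overlapped in their libraries and 4 stood apart: Hnrnpa3 above Hnrnpa1, Hnrnpa1 above Hnrnpa2b1, Hnrnpk above Hnrnph2 and Srsf11 above Hnrnpm. Srsf5, at 51.6 CPM per kb, was the most abundant SR gene, and the median of the Srsf genes was 20.5. Cirbp and Rbm3 had similar levels per length, at 20.7 and 18.3 CPM per kb. The Tra2 genes (8.97 for Tra2a and 7.24 for Tra2b) and the Clk kinases (10.8 for Clk1, 6.89 for Clk4, 5.53 for Clk3 and 4.63 for Clk2) were at the low end, as was Srsf12, an SR protein of restricted expression, at 7.497.

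**Figure D1:**
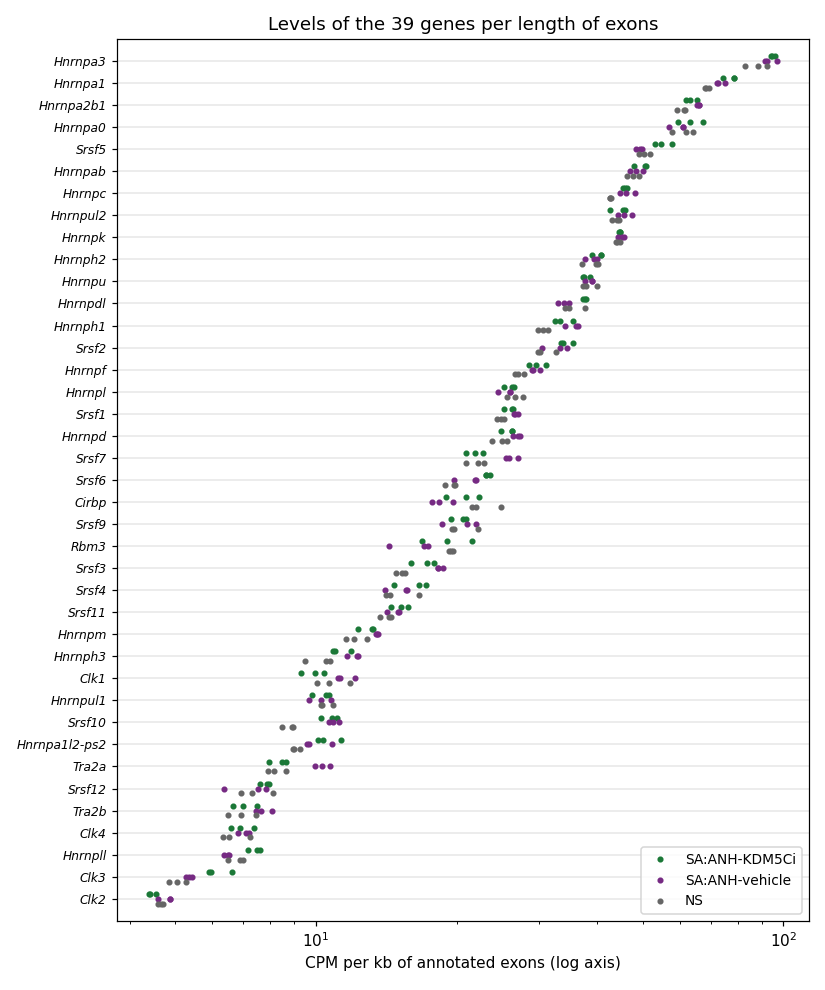
CPM per kilobase of exon of the 39 genes on a log axis, ordered by mean level, with 1 point per library and colours for SA:ANH-KDM5Ci, SA:ANH-vehicle and NS. Hnrnpa3 leads at 92.0 CPM per kb and Clk2 is lowest at 4.63, and the 9 points of a gene lie close together compared with the 19.9-fold range.

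Over all 39 genes, the inhibitor against vehicle gave 1 gene that rose (Hnrnpll) and 2 that fell (Srsf7 and Tra2a). That is 2.56% and 5.13% of the genes, against 0.891% and 1.62% of all 15144 genes tested that rose and fell, or 2.51% in either direction. Without vehicle replicate 2, 0 of the 39 fell in edgeR (with all libraries, 12 of 39 had an unadjusted p under 0.05, against 14.2% of all genes tested, and DESeq2 and limma-voom called the same 2 falls). The 3 inhibitor-treated libraries were all above the 3 vehicle libraries in 5 of the 39 genes (12.8%, against 7.92% of all genes tested) and all below in 9 (23.1%, against 10.9%). The log2 fold change was above 0 in 20 genes (51.3%, against 51.1%), with a median of 0.01, against 0.00 over all genes tested.

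For stressed vehicle-treated against non-stressed mice, edgeR called 0 genes higher and 0 lower, against 0.0132% and 0% of all genes tested. At an unadjusted p under 0.05 there were 15 higher and 2 lower, where 8.21% of all genes tested had such a p. DESeq2 called 5 higher (Hnrnph1, Srsf10, Srsf3, Srsf7 and Tra2a) and 1 lower (Cirbp), where over all genes tested it called 43 higher and 38 lower. Limma-voom called 0 of the 39 in either direction, and 2 higher and 1 lower over all genes. All vehicle libraries were above all NS libraries in 14 of the 39 genes (35.9%, against 8.29% of all genes tested), and below them in 2 (5.13%, against 6.81%). The log2 difference was above 0 in 29 genes (74.4%, against 51.6% of all genes tested), with a median of 0.08 against 0.00.

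For inhibitor-treated stressed against non-stressed mice, 4 of the 39 genes rose (Srsf10, Clk3, Srsf6 and Hnrnpa1) and 0 fell. The shares were 10.3% and 0%, against 1.86% and 2.11% of all genes tested, or 3.97% in either direction. At an unadjusted p under 0.05 there were 14 higher and 0 lower, against 18.5% of all genes tested, and DESeq2 and limma-voom also called 0 lower. The 4 rises came down to 1, Srsf10, without NS replicate 3, and to 2 without NS replicate 2 or without SA:ANH-KDM5Ci replicate 1. Inhibitor-treated libraries were all above the NS libraries in 17 genes (43.6%, against 11.5%) and all below in 1, Clk2 (2.56%, against 12%). The log2 difference was above 0 in 30 genes (76.9%, against 49.9% of all genes tested), with a median of 0.06, against 0.00. This comparison and the previous one share the NS libraries.

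Summed over the 39 genes, the level was 5609.8 to 5612.5 CPM in SA:ANH-KDM5Ci, 5572 to 5647.5 CPM in SA:ANH-vehicle and 5277.5 to 5429.6 CPM in NS. The 6 libraries of stressed mice were above the 3 of non-stressed mice, and the inhibitor-treated sums lay within the range of the vehicle sums. The most abundant genes weigh most in this sum.

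**Figure D2:**
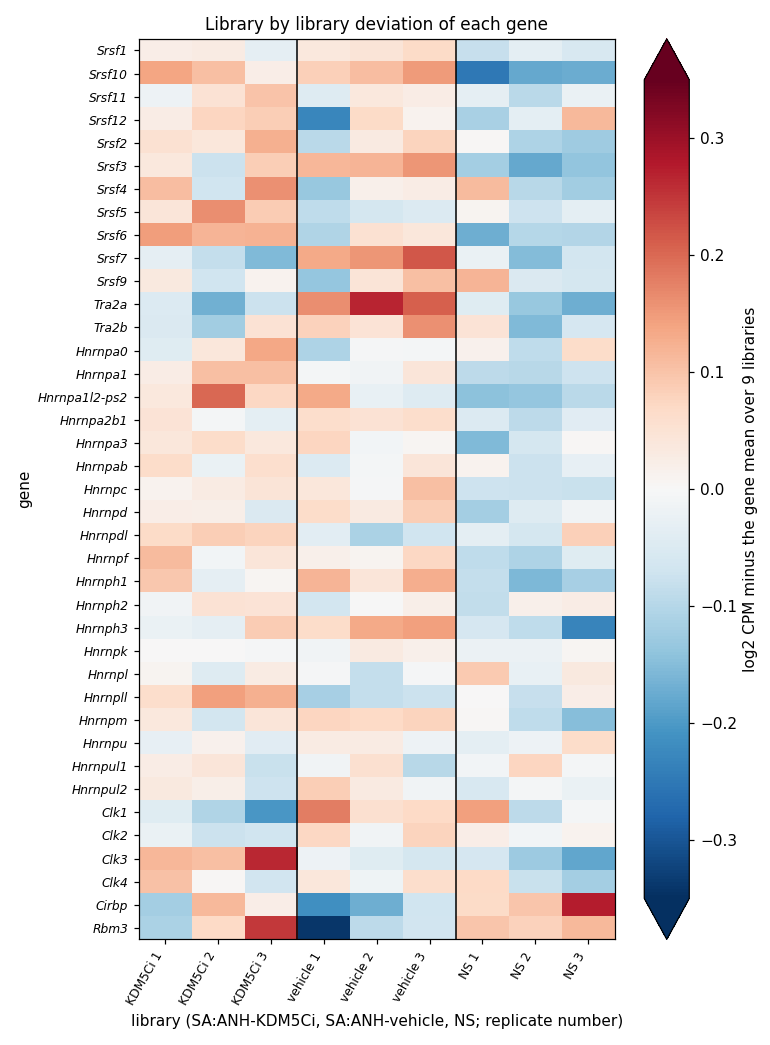
Log2 CPM of each of the 39 genes minus its own mean over the 9 libraries, with genes in rows and libraries in columns, from SA:ANH-KDM5Ci on the left through SA:ANH-vehicle to NS on the right. Colours stop at 0.35 in either direction. Tra2a and Srsf7 are high in the vehicle columns, and Srsf10 is low in the NS columns. Cirbp and Rbm3 are below their means in the vehicle columns and in SA:ANH-KDM5Ci replicate 1.

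**Figure D3:**
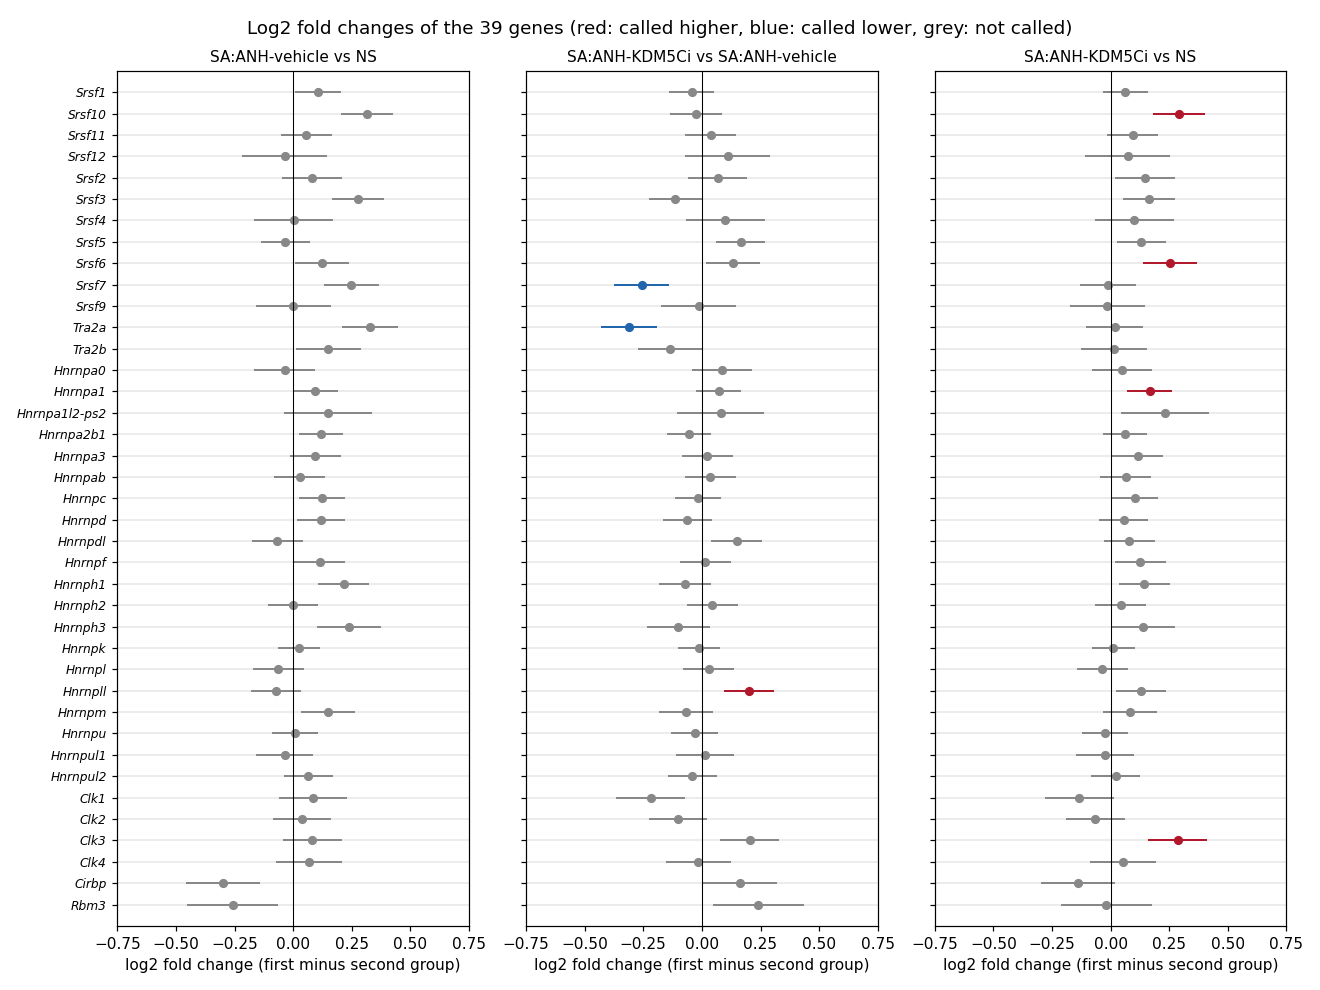
Log2 fold changes of the 39 genes in 3 comparisons with unadjusted 95% intervals. Red marks genes that rose, blue genes that fell and grey genes that did not pass at an adjusted p of 0.05 in edgeR. Inhibitor against vehicle has 1 red and 2 blue genes, vehicle against NS has none, and inhibitor against NS has 4 red genes.

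Among the SR protein and Tra2 genes, 4 passed the adjusted threshold: Tra2a and Srsf7, which fell under the inhibitor relative to vehicle, and Srsf10 and Srsf6, which rose in inhibitor-treated stressed mice relative to non-stressed mice. Tra2a (NCBI gene 101214, chr6:49243921-49264248 on GRCm38) encodes a partner of SR proteins that binds GAA-rich exonic enhancers. Its levels were 59.9, 55.2 and 58.8 CPM in SA:ANH-KDM5Ci, 69.4, 74.5 and 71.6 CPM in SA:ANH-vehicle and 60.1, 56.5 and 55 CPM in NS. The 3 vehicle libraries lay above all 6 others, and the inhibitor-treated and non-stressed libraries overlapped.

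Against vehicle, Tra2a fell by 19.3% in SA:ANH-KDM5Ci (log2 fold change -0.31 ± 0.05, edgeR quasi-likelihood test, Benjamini-Hochberg adjusted p = 0.0072). In SA:ANH-vehicle it averaged 71.8 ± 2.598 CPM, against 57.2 ± 2.63 CPM in NS (SD, n = 3 each), a log2 difference of 0.33 ± 0.05 that did not pass in edgeR (adjusted p = 0.0608). Between SA:ANH-KDM5Ci and NS the log2 difference was 0.02, with a 95% interval of -0.10 to 0.14 (edgeR adjusted p = 0.899). These comparisons share the vehicle or the non-stressed libraries, so their values are not independent. Without vehicle replicate 2, the fall of Tra2a against vehicle had an edgeR adjusted p of 0.0542.

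Srsf7 (NCBI gene 225027, chr17:80200080-80207369 on GRCm38) encodes an SR protein with a zinc knuckle that also takes part in RNA export. Its levels were 80.7, 77.95 and 74.2 CPM in SA:ANH-KDM5Ci, 90.5, 91.8 and 96.05 CPM in SA:ANH-vehicle and 81.3, 74.4 and 79.02 CPM in NS. As for Tra2a, all vehicle libraries were above all inhibitor-treated and all non-stressed ones, and those of the inhibitor-treated and non-stressed groups overlapped. Srsf7 fell by 16.4% in SA:ANH-KDM5Ci relative to SA:ANH-vehicle (log2 fold change -0.26 ± 0.05, edgeR adjusted p = 0.0189). It averaged 92.8 ± 2.904 CPM in SA:ANH-vehicle and 78.2 ± 3.52 CPM in NS (log2 difference 0.25 ± 0.05, edgeR adjusted p = 0.153). In SA:ANH-KDM5Ci against NS the log2 difference was -0.01, with an interval of -0.12 to 0.10 (edgeR adjusted p = 0.942). The fall against vehicle did not pass when vehicle replicate 2 was left out (edgeR adjusted p = 0.0746), nor without vehicle replicate 3, SA:ANH-KDM5Ci replicate 2 or SA:ANH-KDM5Ci replicate 3, where adjusted p reached at most 0.0816.

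Srsf10 (NCBI gene 14105, chr4:135855752-135869908 on GRCm38) encodes an SR-like protein known to act as a general splicing repressor when it loses its phosphates in heat shock. Its levels were 77.7, 76.01 and 71.8 CPM in SA:ANH-KDM5Ci, 74.9, 76.2 and 78.4 CPM in SA:ANH-vehicle and 59.4, 62.4 and 62.6 CPM in NS. All 6 libraries of stressed mice were above all 3 libraries of non-stressed mice, and the inhibitor-treated and vehicle libraries overlapped. It was 22.2% higher in SA:ANH-KDM5Ci than in NS (log2 fold change 0.29 ± 0.05, edgeR adjusted p = 0.00502), and this passed without each of the 9 libraries in turn. SA:ANH-vehicle had a similar distance from NS, 0.32 ± 0.05, which missed the threshold (edgeR adjusted p = 0.0579). Between SA:ANH-KDM5Ci and SA:ANH-vehicle the log2 difference was -0.03, with an interval of -0.13 to 0.08 (edgeR adjusted p = 0.872).

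Srsf6 (NCBI gene 67996, chr2:162931508-162937121 on GRCm38) encodes an SR protein known to regulate splicing of the tau transcript. Its levels were 113, 111 and 111 CPM in SA:ANH-KDM5Ci, 95.1, 106 and 105 CPM in SA:ANH-vehicle and 90.9, 95.4 and 95.2 CPM in NS. Each inhibitor-treated library was above each vehicle library, and the vehicle and non-stressed libraries overlapped through vehicle replicate 1. Srsf6 rose by 19.2% in SA:ANH-KDM5Ci relative to NS (log2 fold change 0.25 ± 0.05, edgeR adjusted p = 0.0156). Against vehicle the log2 difference was 0.13 ± 0.05 (edgeR adjusted p = 0.253), and SA:ANH-vehicle differed from NS by 0.12 ± 0.05 (edgeR adjusted p = 0.564). The rise against NS did not pass without NS replicate 3 or without SA:ANH-KDM5Ci replicate 1, with an edgeR adjusted p of up to 0.0672.

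Of the SR genes that passed no test in edgeR, Srsf3 and Srsf5 had the smallest p. Srsf3 encodes the smallest SR protein, which links splicing to export. Its levels were 136, 126 and 141 CPM in SA:ANH-KDM5Ci, 144, 144 and 148 CPM in SA:ANH-vehicle and 122, 118 and 121 CPM in NS. The 3 groups did not overlap: vehicle was highest, inhibitor-treated intermediate and non-stressed lowest. SA:ANH-KDM5Ci minus SA:ANH-vehicle was -0.11 on the log2 scale and did not pass (edgeR adjusted p = 0.317). The log2 difference was 0.28 for SA:ANH-vehicle minus NS (edgeR adjusted p = 0.0908) and 0.16 for SA:ANH-KDM5Ci minus NS (edgeR adjusted p = 0.0933). DESeq2 called Srsf3 higher in both, with adjusted p of 0.000455 and 0.04255. Srsf5, an SR protein first known in rat liver as induced by insulin, had 212, 229.9 and 219 CPM in SA:ANH-KDM5Ci, 193, 197 and 199 CPM in SA:ANH-vehicle and 207, 195 and 200.5 CPM in NS. Its inhibitor-treated libraries were above all others, at a log2 difference of 0.17 ± 0.05 from vehicle (adjusted p = 0.0931 in edgeR and 0.0176 in DESeq2).

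Tra2b, the more widely studied Tra2 gene, had 64.4, 61.3 and 69.1 CPM in SA:ANH-KDM5Ci, 70.6, 68.95 and 74.5 CPM in SA:ANH-vehicle and 68.96, 60.01 and 64.1 CPM in NS. Its groups overlapped in every comparison. It was -0.13 on the log2 scale in SA:ANH-KDM5Ci relative to SA:ANH-vehicle (edgeR adjusted p = 0.352) and 0.15 in SA:ANH-vehicle relative to NS (edgeR adjusted p = 0.554). The remaining 6 Srsf genes (Srsf1, Srsf2, Srsf4, Srsf9, Srsf11 and Srsf12) passed no test, with log2 differences of -0.04 to 0.15 over the 3 comparisons and edgeR adjusted p of at least 0.182.

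**Figure D4:**
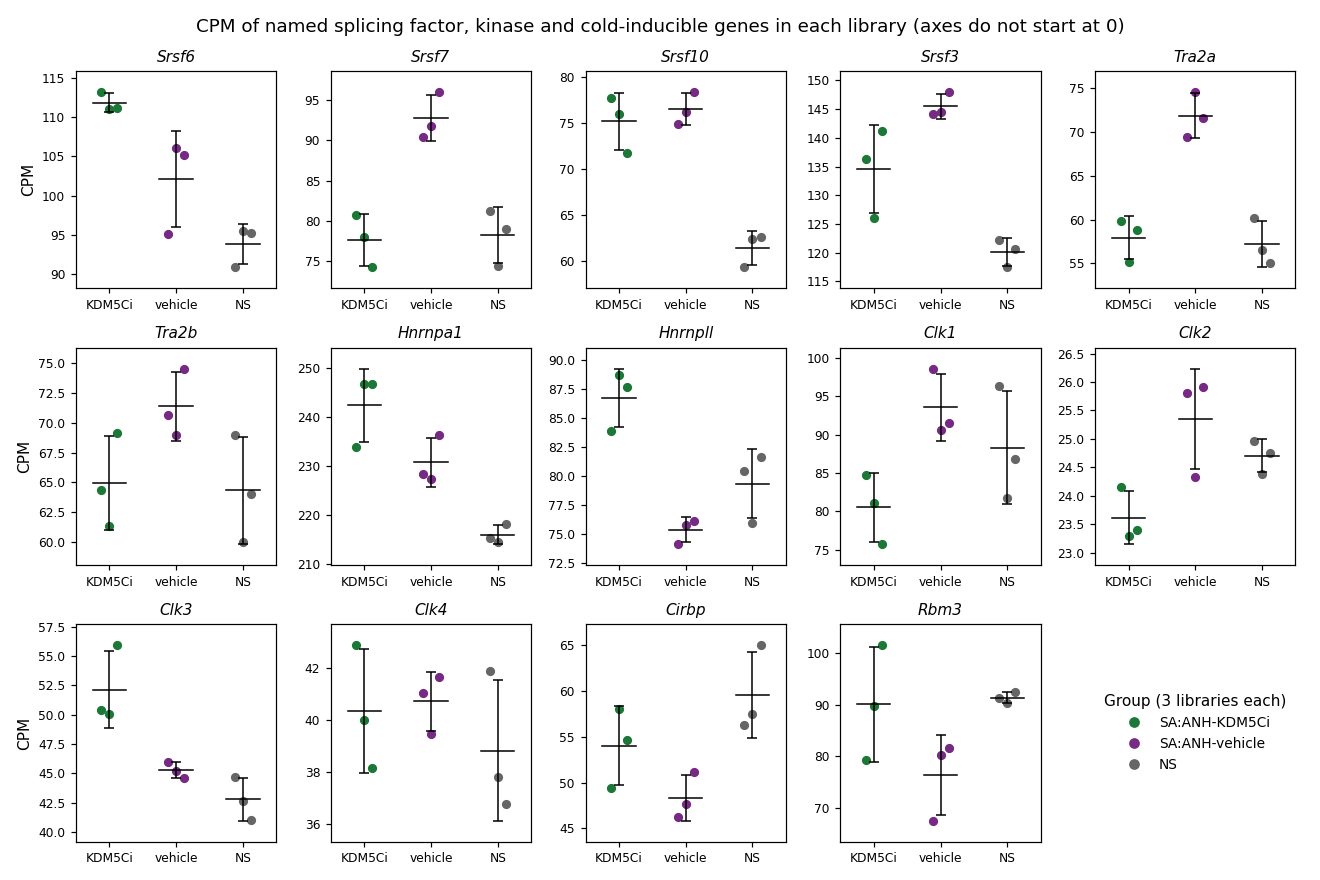
CPM of 14 genes in each library, with SA:ANH-KDM5Ci on the left, SA:ANH-vehicle in the middle and NS on the right. Points are libraries, lines are group means and bars are SD over 3 libraries, and the vertical axes do not start at 0. Tra2a and Srsf7 are highest in the 3 vehicle libraries, Srsf10 is lowest in the 3 NS libraries, Clk3 is highest in the 3 inhibitor-treated libraries, and Cirbp and Rbm3 are lower in every vehicle library than in every NS library.

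Of the 20 Hnrnp genes, Hnrnpll rose and 0 fell in SA:ANH-KDM5Ci relative to SA:ANH-vehicle, and Hnrnpa1 rose and 0 fell relative to NS. Each rise is 5% of the 20 genes, against 0.891% and 1.86% of all genes tested. EdgeR, DESeq2 and limma-voom each called 0 lower in these comparisons. In edgeR 1.62% and 2.11% of all genes tested fell, so 0 of 20 is near those shares. At an unadjusted p under 0.05 there were 2 of 20 relative to SA:ANH-vehicle and 8 relative to NS, with 0 lower in either. Over all genes tested, 14.2% and 18.5% had such a p. Hnrnpll (NCBI gene 72692, chr17:80029487-80062268 on GRCm38) encodes a protein related to hnRNP L that is known to control alternative splicing of the CD45 transcript in T cells. Its levels were 83.9, 88.7 and 87.6 CPM in SA:ANH-KDM5Ci, 74.2, 75.8 and 76.2 CPM in SA:ANH-vehicle and 80.4, 75.98 and 81.6 CPM in NS. The inhibitor-treated libraries were above all libraries of both other groups, which overlapped each other. Hnrnpll rose by 15.04% relative to SA:ANH-vehicle (log2 fold change 0.20 ± 0.05, edgeR adjusted p = 0.0416). Relative to NS the log2 difference was 0.13 ± 0.05 (edgeR adjusted p = 0.164). The call against vehicle passed without NS replicate 1 and was lost without any one of the other 8 libraries, with an edgeR adjusted p of up to 0.134.

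Hnrnpa1 (NCBI gene 15382, chr15:103239943-103246698 on GRCm38) encodes a well known exon-repressing hnRNP. Its levels were 234, 247 and 247 CPM in SA:ANH-KDM5Ci, 228, 227 and 236 CPM in SA:ANH-vehicle and 215, 215 and 218 CPM in NS. All libraries of stressed mice were above all libraries of non-stressed mice, and the inhibitor-treated and vehicle libraries overlapped. Hnrnpa1 rose by 12.2% in SA:ANH-KDM5Ci relative to NS (log2 fold change 0.17 ± 0.04), with an edgeR adjusted p of 0.0499, just under the threshold. The call was kept in 1 of the 9 fits that leave out a library, with an adjusted p of up to 0.175. Near-identical copies of Hnrnpa1 exist in the mouse genome, one of which is Hnrnpa1l2-ps2, so reads could have been split between them.

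Among Hnrnp genes that passed no test in edgeR, Hnrnph1 and Hnrnph3, which bind runs of G, were lowest in non-stressed mice. Hnrnph1 had 207, 190.0 and 195 CPM in SA:ANH-KDM5Ci, 211, 199.7 and 212 CPM in SA:ANH-vehicle and 183, 174 and 179 CPM in NS. Its vehicle libraries were above the NS libraries by 0.22 ± 0.05 on the log2 scale (adjusted p = 0.178 in edgeR and 0.0130 in DESeq2). Hnrnph3 had 34.6, 34.4 and 37.4 CPM in SA:ANH-KDM5Ci, 36.8, 38.5 and 38.9 CPM in SA:ANH-vehicle and 33.8, 33.1 and 29.9 CPM in NS, with a log2 difference of 0.24 ± 0.06 between SA:ANH-vehicle and NS (edgeR adjusted p = 0.278). For both, the stressed libraries of either treatment were above every non-stressed one. Hnrnpdl, a relative of hnRNP D, had 179.6, 182 and 181 CPM in SA:ANH-KDM5Ci, 167, 159 and 164 CPM in SA:ANH-vehicle and 168, 164 and 182 CPM in NS. It was 0.15 on the log2 scale in SA:ANH-KDM5Ci relative to SA:ANH-vehicle, with no overlap of these groups (edgeR adjusted p = 0.154). Hnrnpm, which binds GU-rich RNA, had 105, 97.8 and 105 CPM in SA:ANH-KDM5Ci, 108, 107 and 108 CPM in SA:ANH-vehicle and 102, 96.2 and 92.3 CPM in NS. March2, on the same strand, overlaps 14.7% of its exon bases, so reads there cannot be told apart even by strand. The vehicle libraries of Hnrnpm were above all others, at 0.15 relative to NS (edgeR adjusted p = 0.439). The other 14 Hnrnp genes passed no test either, with log2 differences of -0.06 to 0.23 over the 3 comparisons and edgeR adjusted p of at least 0.163.

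Of the 4 Clk kinase genes, Clk3 rose in inhibitor-treated stressed mice relative to non-stressed mice, and the other 3 passed no test. Clk3 (NCBI gene 102414, chr9:57750621-57766235 on GRCm38) had 50.4, 50.1 and 55.9 CPM in SA:ANH-KDM5Ci, 46, 45.2 and 44.6 CPM in SA:ANH-vehicle and 44.7, 42.6 and 41.05 CPM in NS. The 3 inhibitor-treated libraries were above all 6 others, and the vehicle and non-stressed libraries overlapped. Clk3 rose by 21.9% in SA:ANH-KDM5Ci relative to NS (log2 fold change 0.29 ± 0.06, edgeR adjusted p = 0.0127). Relative to SA:ANH-vehicle the log2 difference was 0.20 ± 0.06 (adjusted p = 0.0869 in edgeR and 0.0480 in DESeq2). The rise against NS did not pass without NS replicate 2 or without NS replicate 3 (edgeR adjusted p of 0.05835 and 0.0740). Exons of Edc3, on the opposite strand, overlap 15.2% of the exon bases of Clk3, and since no source used here says that counting used the strand, reads of the pair cannot be told apart. The same holds for Srsf4, of whose exon bases 43.0% overlap Gm12992, for Hnrnpab, with 29.1% overlapping Phykpl, for Srsf2, with 15.6% overlapping Mettl23, and for Hnrnpf, with 13.5% overlapping 4933440N22Rik.

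Clk1, whose transcripts with retained introns are known in mouse cells to wait in the nucleus and mature on stress, passed no test. It had 84.7, 81.1 and 75.7 CPM in SA:ANH-KDM5Ci, 98.6, 90.6 and 91.5 CPM in SA:ANH-vehicle and 96.3, 81.8 and 86.8 CPM in NS. Inhibitor-treated libraries were below all vehicle libraries and overlapped those of NS. The log2 difference from vehicle was -0.22 ± 0.07, with an interval of -0.36 to -0.08 (edgeR adjusted p = 0.12). Clk2 had 24.1, 23.3 and 23.4 CPM in SA:ANH-KDM5Ci, 25.8, 24.3 and 25.9 CPM in SA:ANH-vehicle and 24.96, 24.4 and 24.8 CPM in NS, and its inhibitor-treated libraries were below all others by small amounts (log2 difference -0.10 from SA:ANH-vehicle, edgeR adjusted p = 0.461, and -0.06 from NS, edgeR adjusted p = 0.584). Clk4, the closest relative of Clk1, had 42.9, 40.01 and 38.1 CPM in SA:ANH-KDM5Ci, 41.1, 39.5 and 41.7 CPM in SA:ANH-vehicle and 41.9, 37.8 and 36.8 CPM in NS. Its groups overlapped in every comparison, with log2 differences of -0.01 between SA:ANH-KDM5Ci and SA:ANH-vehicle (95% interval -0.15 to 0.12) and 0.07 between SA:ANH-vehicle and NS (95% interval -0.07 to 0.20).

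The cold-inducible genes Cirbp and Rbm3 passed no test in edgeR. In both, the 3 vehicle libraries were below the 3 non-stressed ones. They are the 2 of the 39 genes of which this holds (5.13%, against 6.81% of all genes tested). Cirbp (NCBI gene 12696, chr10:80165990-80172786 on GRCm38) had 49.5, 58.04 and 54.6 CPM in SA:ANH-KDM5Ci, 46.2, 47.7 and 51.1 CPM in SA:ANH-vehicle and 56.2, 57.4 and 64.9 CPM in NS. The inhibitor-treated libraries overlapped both other groups. Body temperature is not given in the labels. Relative to NS, Cirbp was -0.30 ± 0.07 on the log2 scale in SA:ANH-vehicle, with an unadjusted 95% interval of -0.45 to -0.15 and an edgeR adjusted p of 0.208. DESeq2 gave the same size with an adjusted p of 0.0303. SA:ANH-KDM5Ci differed from SA:ANH-vehicle by 0.16 ± 0.07 (edgeR adjusted p = 0.322) and from NS by -0.14 ± 0.07 (edgeR adjusted p = 0.321).

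Rbm3 (NCBI gene 19652, chrX:8138975-8145880 on GRCm38) had 79.2, 89.7 and 102 CPM in SA:ANH-KDM5Ci, 67.5, 80.2 and 81.6 CPM in SA:ANH-vehicle and 91.3, 90.4 and 92.4 CPM in NS. Its NS libraries lay close together, while the libraries of the stressed groups were spread more widely, with vehicle replicate 1 lowest and inhibitor-treated replicate 3 highest. Relative to NS, Rbm3 was -0.26 ± 0.09 in SA:ANH-vehicle (edgeR adjusted p = 0.433, and 0.269 in DESeq2). SA:ANH-KDM5Ci averaged 90.1 ± 11.2 CPM, SA:ANH-vehicle 76.5 ± 7.77 CPM and NS 91.4 ± 1.02 CPM (SD, n = 3 each). The log2 difference of SA:ANH-KDM5Ci was 0.24 ± 0.09 from SA:ANH-vehicle (edgeR adjusted p = 0.216) and -0.02 from NS, with an interval of -0.21 to 0.17. An antisense gene, Rbm3os, overlaps 2.0% of the exon bases of Rbm3.

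Other genes of splicing and related processes were described with 8 lists holding 178 genes tested. Of these, 14 were on the nonsense-mediated decay list and 18 on the heat shock list. The totals below are therefore not of splicing genes alone. In SA:ANH-KDM5Ci relative to SA:ANH-vehicle, 2 of the 178 rose and 2 fell (1.12% each, against 0.891% and 1.62% of all genes tested). In SA:ANH-vehicle relative to NS, 0 rose and 0 fell in edgeR, with 27 higher and 4 lower at an unadjusted p under 0.05 (17.4%, against 8.21%). There DESeq2 called 3 higher (Sfpq, and Chordc1 and Hspb1 of the heat shock list) and 0 lower, and limma-voom called 0. In SA:ANH-KDM5Ci relative to NS, 5 rose and 1 fell (2.81% and 0.562%, against 1.86% and 2.11%).

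In the list of SR protein kinases and phosphatase partners, 1 of 8 genes, Ppp1r10, rose in SA:ANH-KDM5Ci relative to both other groups. It encodes a nuclear targeting subunit of protein phosphatase 1, and whether it acts on SR proteins was not tested. The SRPK kinase genes Srpk1, Srpk2 and Srpk3 passed no test in edgeR. Ppp1r10 had 73.2, 75.8 and 81.5 CPM in SA:ANH-KDM5Ci, 52.2, 53.97 and 50.3 CPM in SA:ANH-vehicle and 56.4, 54.3 and 53.9 CPM in NS. Its inhibitor-treated libraries were above the other 6, which overlapped. The log2 fold change was 0.56 ± 0.05 relative to SA:ANH-vehicle (edgeR adjusted p = 9.01e-05) and 0.49 relative to NS (edgeR adjusted p = 0.000174), larger than that of any of the 39 genes.

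Among 14 nonsense-mediated decay genes, Smg5, which helps to recruit the decay enzymes, rose in SA:ANH-KDM5Ci by 0.25 relative to SA:ANH-vehicle (edgeR adjusted p = 0.0185) and by 0.21 relative to NS (edgeR adjusted p = 0.0376). It had 118, 114 and 115 CPM in SA:ANH-KDM5Ci, 98.3, 101 and 93.02 CPM in SA:ANH-vehicle and 105, 101 and 95.5 CPM in NS. Among 34 other RNA-binding motif genes, Rbm5 and Rbm14 fell relative to SA:ANH-vehicle, by 0.22 (edgeR adjusted p = 0.0439) and 0.23 (edgeR adjusted p = 0.0358) on the log2 scale, and 0 passed relative to NS in edgeR (5 higher and 6 lower at an unadjusted p under 0.05, 1 higher and 1 lower in DESeq2, 0 in limma-voom). Rbm5 is a splicing regulator of apoptosis genes. It had 118, 113 and 105 CPM in SA:ANH-KDM5Ci, 129.8, 132 and 128 CPM in SA:ANH-vehicle and 125, 127 and 132 CPM in NS. Rbm14, a coactivator found in paraspeckles, had 26.4, 26.2 and 25.4 CPM in SA:ANH-KDM5Ci, 30.2, 30.6 and 30.9 CPM in SA:ANH-vehicle and 29.9, 28.8 and 27.97 CPM in NS. For both, each inhibitor-treated library was below each vehicle library.

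Of 27 other splicing regulators of brain, such as the NOVA, RBFOX, CELF and ELAVL families, Qk rose by 0.23 (edgeR adjusted p = 0.0342) and Celf3 fell by 0.23 (edgeR adjusted p = 0.0283) in SA:ANH-KDM5Ci relative to NS. Qk, a regulator of splicing in glia that is needed for myelin, had 422, 416 and 382 CPM in SA:ANH-KDM5Ci, 397, 362 and 350.2 CPM in SA:ANH-vehicle and 347, 351 and 341 CPM in NS. All 10 myelin markers had log2 differences above 0 in the same comparison (median 0.57), and their part in the value of Qk was not tested. Celf3, a neuronal splicing regulator, had 97.9, 102 and 95.3 CPM in SA:ANH-KDM5Ci, 94.5, 106 and 105 CPM in SA:ANH-vehicle and 117, 113 and 118 CPM in NS.

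The core spliceosome had 46 genes tested, of which 1, the helicase Dhx15, rose in SA:ANH-KDM5Ci relative to NS (log2 fold change 0.18, edgeR adjusted p = 0.0411). It had 96.01, 98.02 and 96.5 CPM in SA:ANH-KDM5Ci, 90.4, 95.3 and 94.1 CPM in SA:ANH-vehicle and 82.95, 86.7 and 86.7 CPM in NS. The median log2 difference of this list was between 0.01 and 0.05 in the 3 comparisons. In the 9 minor spliceosome genes and the 22 nuclear speckle genes edgeR called 0 in every comparison. The 3 comparisons are given in the order SA:ANH-vehicle against NS, SA:ANH-KDM5Ci against SA:ANH-vehicle, SA:ANH-KDM5Ci against NS. At an unadjusted p under 0.05 the minor spliceosome had 0, 2 and 1 genes (0%, 22.2% and 11.1%). The speckle genes had 4, 5 and 4 (18.2%, 22.7% and 18.2%). Over all genes tested the shares were 8.21%, 14.2% and 18.5%. DESeq2 called Neat1 lower against SA:ANH-vehicle and Malat1 higher against NS, and limma-voom called 0 in these 2 lists.

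The heat shock list held 18 genes for heat shock factors and chaperones, some but not all of them induced by heat, where Cirbp and Rbm3 are induced by cold. Of these 18, the small heat shock protein gene Hspb1 rose in SA:ANH-KDM5Ci relative to NS (log2 fold change 0.59, edgeR adjusted p = 0.0198). Hspb1 had 6.33, 5.24 and 6.57 CPM in SA:ANH-KDM5Ci, 6.96, 6.02 and 5.501 CPM in SA:ANH-vehicle and 4.13, 4.24 and 3.65 CPM in NS. Both stressed groups were above every NS library, at low levels. In SA:ANH-vehicle relative to NS, 17 of the 18 had a log2 difference above 0, where 51.6% of all genes tested did. The median was 0.09, against 0.00 over all genes tested. At an unadjusted p under 0.05 in edgeR there were 5 (27.8%, against 8.21% of all genes tested). EdgeR and limma-voom called 0, and DESeq2 called 2 higher (Chordc1 and Hspb1). In SA:ANH-KDM5Ci relative to NS, 15 of the 18 were above 0, where 49.9% of all genes tested were, with a median of 0.09. In edgeR 5 had an unadjusted p under 0.05 (27.8%, against 18.5% of all genes tested). Both comparisons share the NS libraries. Relative to SA:ANH-vehicle, 8 of the 18 were above 0 in SA:ANH-KDM5Ci, where 51.1% of all genes tested were, with a median of -0.02. In this last comparison the calls were as follows. EdgeR, DESeq2 and limma-voom called 0. In edgeR 2 had an unadjusted p under 0.05, both lower (11.1%, against 14.2% of all genes tested in either direction).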

How the data were processed

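Total RNA from frozen mPFC was purified with Direct-zol, and 1 ug went into each strand-specific SureSelect library, per the labels' protocols. The submitters' processing notes name Trimmomatic 0.32, TopHat2 2.0.13, Bowtie2 2.2.3 and mm10. The counting tool, its use of strand and the submitters' test are not given in the sources used here. Expected counts are the values the authors deposited, 1 per gene and library, and are mostly fractional: 15.7% of the values above 0 were whole within 1e-06. Reads that match several genes may have been shared out between them. Gene IDs were matched to RefSeq symbols of GRCm38.p6, which covered 19215 of the 19250 features above 0. Exon lengths and exon overlaps come from GENCODE vM21.

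Expected counts were rounded and tested with edgeR 4.0.16 in R 4.3.3 (filterByExpr, TMM, glmQLFit with robust moderation, glmQLFTest), all 9 libraries being fitted together with a mean for each group. P-values were adjusted by Benjamini-Hochberg over 15144 genes at 0.05. The common biological coefficient of variation was 6.95%. CPM values are edgeR's, on TMM-scaled library sizes. Intervals on log2 fold changes are 95% intervals from the same fit, unadjusted. The step was also run on simulated data with known fold changes. Its recovery there of changes as small as those above is not given here. Alternatives were DESeq2 1.42.0, limma-voom (limma 3.58.1), other scalings and filters, 2 groups alone, a replicate block, a threshold of 0.1 and each library left out.

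The genes, lists, tests and rule for named genes were chosen with earlier results of these data known. That rule names each gene that passed in some comparison, the Clk and Tra2 genes, Cirbp and Rbm3, and the 6 others of lowest p. From the 8 further lists (SR protein kinases and phosphatase partners, brain splicing regulators, core and minor spliceosome, nuclear speckle, RNA-binding motif genes, nonsense-mediated decay, heat shock), it names up to 3 genes per comparison that passed. Listed genes at 0 in every library were Ptbp3, Scnm1 and Rbm48.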

Additional observations from a re-analysis of the deposited data

How the results depend on the processing

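For SA:ANH-vehicle against NS, where 0 of the 39 genes were called higher and 0 lower (2 and 0 over all genes tested), DESeq2 called 5 higher and 1 lower (43 and 38 over all genes). Without TMM 2 were higher (10 and 1 over all genes), without a low-count filter 2 (9 and 2), in the 2 groups alone 1 (14 and 3) and at a threshold of 0.1 3 (12 and 3). Leaving out each library gave 0 to 3 higher, with 3 (Srsf10, Srsf3 and Tra2a) without SA:ANH-KDM5Ci replicate 3 (14 and 3 over all genes). For SA:ANH-KDM5Ci against SA:ANH-vehicle (135 higher and 245 lower over all genes), the 1 gene called higher became 3 in DESeq2 (Clk3, Hnrnpll and Srsf5, 189 and 293 over all genes) and 3 at a threshold of 0.1 (213 and 380), and 0 without TMM (121 and 293), in the 2 groups alone (120 and 174) and with the replicate block (161 and 202), and 0 to 1 with a library left out. The 2 genes called lower remained under all 10 other settings, and leaving out a library gave 0 to 2, with 0 without SA:ANH-vehicle replicate 2 (85 and 118 over all genes). For SA:ANH-KDM5Ci against NS (281 and 320 over all genes), the 4 genes called higher were 3 to 5 under other settings (425 and 406 over all genes in DESeq2) and 1 to 4 with a library left out (133 and 136 without NS replicate 3, which gave 1). The cause of these changes was not tested.

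Same-numbered libraries of different groups had correlated deviations (above 0.1) in 3 of 9 pairs, and differently numbered ones in 3 of 18. Between SA:ANH-KDM5Ci and SA:ANH-vehicle all 3 same-numbered pairs were above 0 (0.0839 to 0.238), 1 of 6 others was, and 5 of 6 libraries correlated best with their own number. This is a hint from the data. The labels give no shared batch or day, and not every pair was above 0.1, so the numbers were not taken to pair the libraries. With the replicate block, Hnrnpll against vehicle and Hnrnpa1 against NS (adjusted p = 0.0512 in edgeR) were no longer called.

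Uncalled log2 differences near 0 changed sign when a library was left out. Over all alternatives, including those fits, SA:ANH-KDM5Ci minus SA:ANH-vehicle ran from -0.0585 to 0.0253 for Clk4 and from -0.0479 to 0.0075 for Srsf10. SA:ANH-KDM5Ci minus NS ran from -0.113 to 0.0652 for Rbm3, from -0.0464 to 0.0226 for Srsf7, from -0.0092 to 0.0603 for Tra2a and from -0.0339 to 0.0732 for Tra2b. Of 1083 gene-level values under alternatives, 1016 kept direction and side of the threshold, 33 lost and 24 gained the call, and 10 changed sign. All values rest on 3 libraries a group.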
